A study of Mus musculus with 14 samples.

Results

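Bcl6+ and TIM-3+ CD8+ T cells from the same kind of tumor were compared gene by gene, with the members of the comparison taken from the labels: 2 Bcl6+ and 2 TIM-3+ samples, 4 of the 14 samples of the series. Host mice carried a red fluorescent Bcl6 reporter (Bcl6-RFP) and were given E.G7 cells, an ovalbumin-expressing mouse lymphoma derived from EL4, under the skin. Tumor-infiltrating lymphocytes (TILs) were sorted by flow cytometry on day 21 into Bcl6+, TIM-3+ and DN populations, all of which share the reporter genotype and the tumor. The labels give neither the meaning of DN, nor the age of the mice, nor whether replicates came from separate animals, so every p-value measures only the spread between these samples. The 2 DN samples are used for that spread and as a level beside those of the genes named.

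Bcl6 is a transcriptional repressor known from germinal centre B cells and follicular helper T cells, and TIM-3, encoded by Havcr2, is a receptor on activated and exhausted T cells. In chronic infection and in tumors, CD8+ T cells with Bcl6 and Tcf7 are known as a self-renewing pool, and cells with TIM-3 as more differentiated cells loaded with cytolytic granules. The account here goes to gene families outside the usual exhaustion lists: surface scaffolds, growth factor receptors, neuropeptides, clotting and complement genes, homeobox factors, chromosome machinery, antigen presentation, the cytoskeleton and metabolism.

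The sort markers went with the labels. Bcl6 was at 59.8 and 56.9 FPKM in the Bcl6+ and 2.16 and 2.65 FPKM in the TIM-3+ libraries, and Havcr2 at 20.2 and 11.5 against 469 and 489 FPKM (FPKM, fragments scaled to gene length and library size, is the level given throughout). Tcf7 (341 and 309 against 13.5 and 18.3 FPKM), Cxcr5 (72.4 and 68.9 against 0.331 and 0.746) and Prf1 (187 and 199.9 against 2441 and 2450) kept the groups apart in the same way. Cd8a was present in every library, at 266 and 275 FPKM in Bcl6+ and 567 and 564 FPKM in TIM-3+ TILs, and Cd4 stayed under 1 FPKM in both groups. Genes of other cells were low but not evenly spread. The summed level of 14 macrophage and monocyte markers was 289 to 321 CPM (counts scaled to library size) in Bcl6+ and 61.9 to 77.98 CPM in TIM-3+ TILs, and all 8 of these markers that passed the level filter were higher in Bcl6+ TILs, with Lyz2 at 58.3 and 63.2 against 19.7 and 12.02 FPKM. Markers of B cells summed to 24.0 to 26.1 against 2.20 to 2.63 CPM, with Cd79b at 0 in both TIM-3+ libraries. Stromal and endothelial markers summed to 88.8 to 118 against 38.2 to 46.7 CPM, most of it Pecam1, and erythroid and platelet markers to 47.2 to 50.7 against 21.4 to 28.1 CPM. NK and innate lymphoid markers were both at 299.6 against 57.3 and 68.8 CPM, most of it Kit, and CD4 and regulatory T cell markers at 498 to 500.2 against 288 to 300.2 CPM. Neutrophil markers went the other way, at 6.98 to 7.43 against 112 to 127 CPM, most of it Ltf. So did thymocyte and lymphoma markers as a list, at 291 to 304 against 526 to 531 CPM, with 1 tested member higher and 1 lower: Themis, its most abundant member, was lower, and Dntt was higher, at 5.90 and 8.4995 against 0.991 and 1.73 FPKM. Plasma cell markers summed to 343 to 405 against 399 to 441 CPM and dendritic cell markers to 66.4 to 87.4 against 68.2 to 71.8 CPM. The 10 CD8 T cell markers summed to 7057 to 7110 CPM in Bcl6+ against 10430 to 10500 CPM in TIM-3+ TILs. All 10 were tested, and 1 was higher and 8 were lower in Bcl6+ TILs. The sums cover only markers with a summed count of at least 20 over the 6 libraries, such as 7 of 12 neutrophil and 5 of 8 NK and innate lymphoid markers. In sorted bulk samples, fewer cells of a type and less RNA per cell cannot be told apart.

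Of 15319 genes listed, 9717 reached an average of 1 FPKM across the Bcl6+ and TIM-3+ libraries and were tested. The edgeR quasi-likelihood test called 3762 of them at a Benjamini-Hochberg adjusted p of 0.05 (38.7%), 1849 higher (19.0%) and 1913 lower (19.7%) in Bcl6+ TILs. A change of at least 2-fold was reached by 1495 genes (15.4%), 851 higher (8.76%) and 644 lower (6.63%). The median log2 fold change of Bcl6+ over TIM-3+ TILs was 0.010. Scaling by total counts moved that median to 0.191 and the calls to 2886 higher and 1287 lower, and scaling by length-corrected totals moved it to 0.271 and the calls to 3511 and 1120. Directions below are therefore relative to the bulk of genes. Under these scalings the median changed sign in 2 of the 29 families described, the phosphoinositide and the glutathione genes.

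The direction of change went with expression level. Among 1033 genes at 1 to under 2 FPKM, 252 were higher and 67 lower in Bcl6+ TILs, and the median log2 fold change was 0.35. Among 437 genes at 100 FPKM or more, 73 were higher and 247 lower, with a median of -0.25. TIM-3+ libraries put more of their counts into few genes: Actb, cytoplasmic beta-actin, took 3.38% and 3.58% of counts there and 1.82% and 1.84% in Bcl6+ libraries. Counts were seen for 14463 and 14454 genes in Bcl6+ libraries and for 13779 and 13773 genes in the deeper TIM-3+ libraries. FPKM differences were ranked outside the lists of genes left out for naming, so Tcf7 and Prf1, given above, were not ranked. Among the genes ranked, mt-Cytb and mt-Nd4, mitochondrial transcripts, with Penk, Dusp1, Fos, Ddx5, Ly6e, Sat1, Cst3 and Rhox5, had the largest gains in Bcl6+ TILs. Actb, Nkg7, B2m, Tmsb4x, Lgals1, Pfn1, Sh3bgrl3, H2-K1, Eef1a1 and Actg1 had the largest losses among the genes ranked. Tmsb4x and Pfn1 bind actin monomers, and Pfn1 was at 829 and 848 FPKM in Bcl6+ against 1718 and 1739 FPKM in TIM-3+ TILs.

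**Figure D1:**
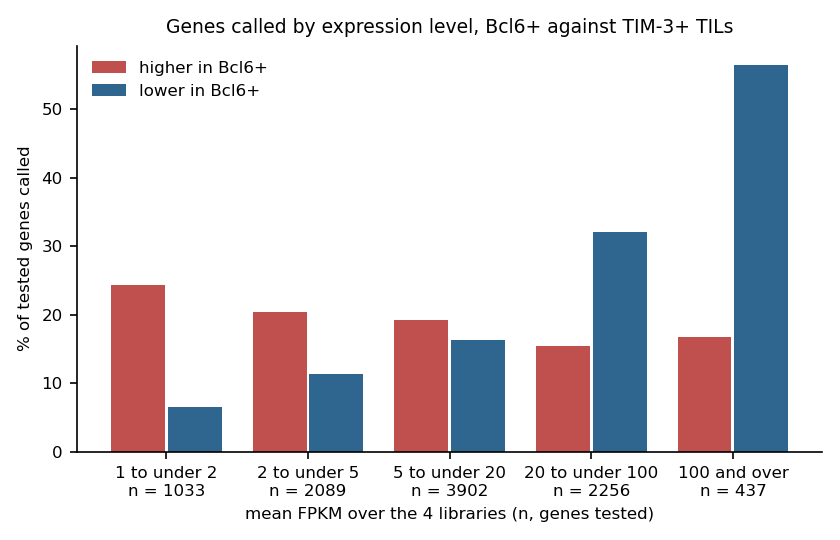
Share of tested genes called higher (red) or lower (blue) in Bcl6+ than in TIM-3+ TILs, in % of the genes tested, by mean FPKM over the 4 libraries. Calls in the lowest bin were 24.4% higher and 6.49% lower, and in the top bin 16.7% higher and 56.5% lower.

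The largest increases by the naming rule were in Prm2, Agr3, Camk1g, Dthd1, Dnase1l3, Ccr6, Art3, Lrrc32, Pcsk1, Myom1, Cx3cl1, Cldn10, Pla2g4f, Galnt14 and Igsf3. The lists left out by that rule were wider than exhaustion genes. Some larger changes given below, such as Colq and Proc, are therefore not among these. Several encode surface or secreted proteins. Ccr6, the receptor of the chemokine Ccl20 (chromosome 17, 8236043 to 8257141, plus strand), was at 72.3 and 73.1 FPKM in Bcl6+ and 0.393 and 0.968 FPKM in TIM-3+ TILs (log2 fold change 6.79, SE 0.24, adjusted p = 8.22e-11), with 32.4 and 30.5 FPKM in DN TILs. Igsf3, an immunoglobulin superfamily membrane protein, was at 52.9 and 55.2 against 0.814 and 1.25 FPKM (log2 fold change 5.77, SE 0.16, adjusted p = 7.09e-12). Dnase1l3, a secreted DNase, was at 40.8 and 36.0 against 0.372 and 0.334 FPKM. The Bcl6+ libraries were thus far above the TIM-3+ libraries for all 3 genes, and the DN libraries lay between them. Lrrc32 encodes GARP, which holds latent TGF-beta at the cell surface, and rose from 0.235 and 0.194 FPKM in TIM-3+ to 16.1 and 14.8 FPKM in Bcl6+ TILs. Cldn10, a claudin of tight junctions, was at 15.6 and 18.4 against 0.241 and 0.332 FPKM. Cx3cl1, the membrane-bound chemokine fractalkine, was at 5.97 and 7.53 against 0.183 and 0.0365 FPKM. Prm2, a sperm protamine, had no count in either TIM-3+ library and 8.01 and 6.24 FPKM in Bcl6+ TILs, which made it at least 92.5-fold higher against a floor of 3 counts over the TIM-3+ group (the bound covers counting error only).

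The largest decreases by the same rule were in F2rl2, Ccl9, Wdr95, Glp1r, Adgrg1, Cd200r4, Serpina3f, Sv2c, Adam8, Epdr1, Apobr, Neil3, Fgl2, F2r and Sytl2. Larger falls of genes left out by the rule, such as Dsc2 and Ltf below, are not among them. Adgrg1 encodes GPR56, an adhesion G protein-coupled receptor of cytotoxic lymphocytes, and was at 4.35 and 3.53 FPKM in Bcl6+ against 62.0 and 59.8 FPKM in TIM-3+ TILs (log2 fold change -3.89, SE 0.12, adjusted p = 1.91e-11). Glp1r, the receptor of glucagon-like peptide 1 (chromosome 17, 30901817 to 30940791, plus strand), was at 3.25 and 5.24 against 68.5 and 74.4 FPKM (log2 fold change -4.01, SE 0.24, adjusted p = 1.37e-08). Ccl9, a CC chemokine, was at 2.95 and 1.89 against 47.1 and 48.2 FPKM. In each of these the DN libraries were nearer to Bcl6+ TILs, at 5.42 to 11.7 FPKM. Serpina3f, a serine protease inhibitor, was at 3.73 and 6.38 against 68.4 and 76.8 FPKM, and Sytl2, a Rab27 effector of granule exocytosis, at 1.15 and 1.25 against 12.5 and 10.7 FPKM. Over all genes with a change of at least 2-fold, the DN mean lay between the means of the other groups for 709 of 851 higher genes (83.3%) and 575 of 644 lower genes (89.3%). Because these genes were selected for the distance between the other groups, a DN value between them is in part fixed by that selection.

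**Figure D2:**
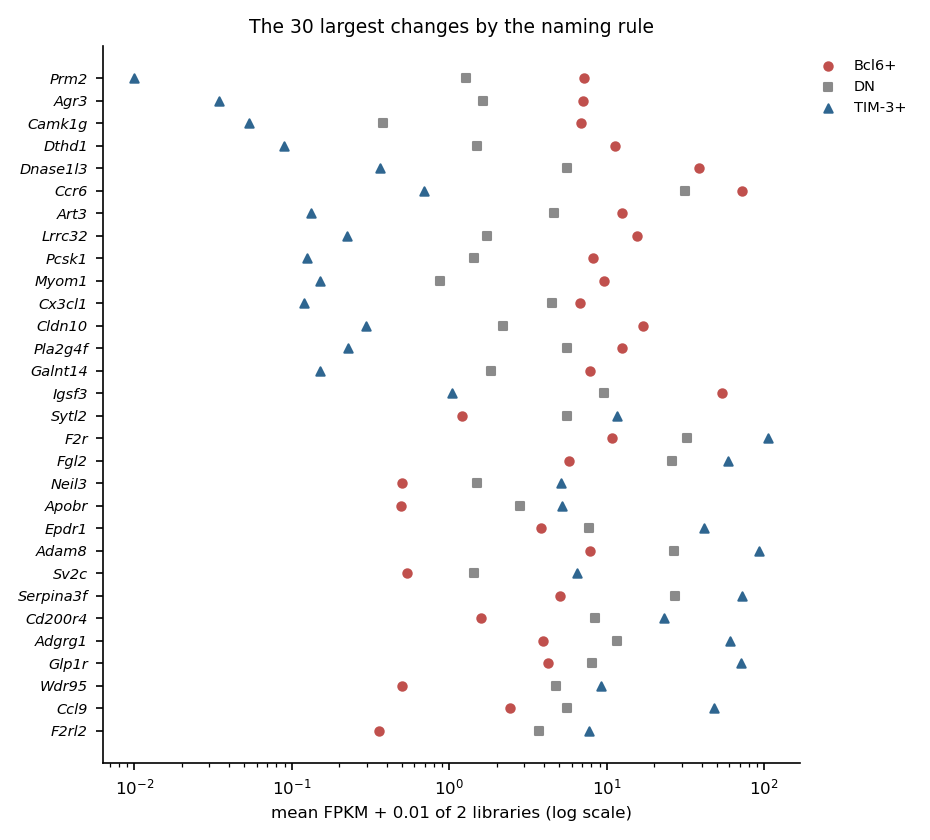
Mean FPKM of 2 libraries, with 0.01 added, on a log scale for the 30 largest changes by the naming rule in Bcl6+ (red circles), DN (grey squares) and TIM-3+ TILs (blue triangles). Prm2 to Igsf3 were higher in Bcl6+ TILs and Sytl2 to F2rl2 lower, and DN TILs lay between the other groups for each gene.

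Of 108 families assembled by gene symbol, 102 had at least 6 tested members. The 20 with the largest absolute median change and the 12 with the largest share of 2-fold calls are described here, with 6 families near the background for contrast, 29 in all because some met more than 1 rule. Families are read against the background of 19.0% of tested genes higher and 19.7% lower. That background is not matched for expression level. It ran from 24.4% higher and 6.49% lower at 1 to under 2 FPKM to 16.7% and 56.5% at 100 FPKM or more. How much of a family's direction goes with the level of its members was not tested. A member with a low level in 1 group passed the level filter through the other, so for the families chosen by size of change the count over members at 1 FPKM or more in both groups is also given. Values without 1 library, for which the level filter was applied again, are given where they move a printed median, or a count of 3 or more, by over 1.5 times.

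**Figure D3:**
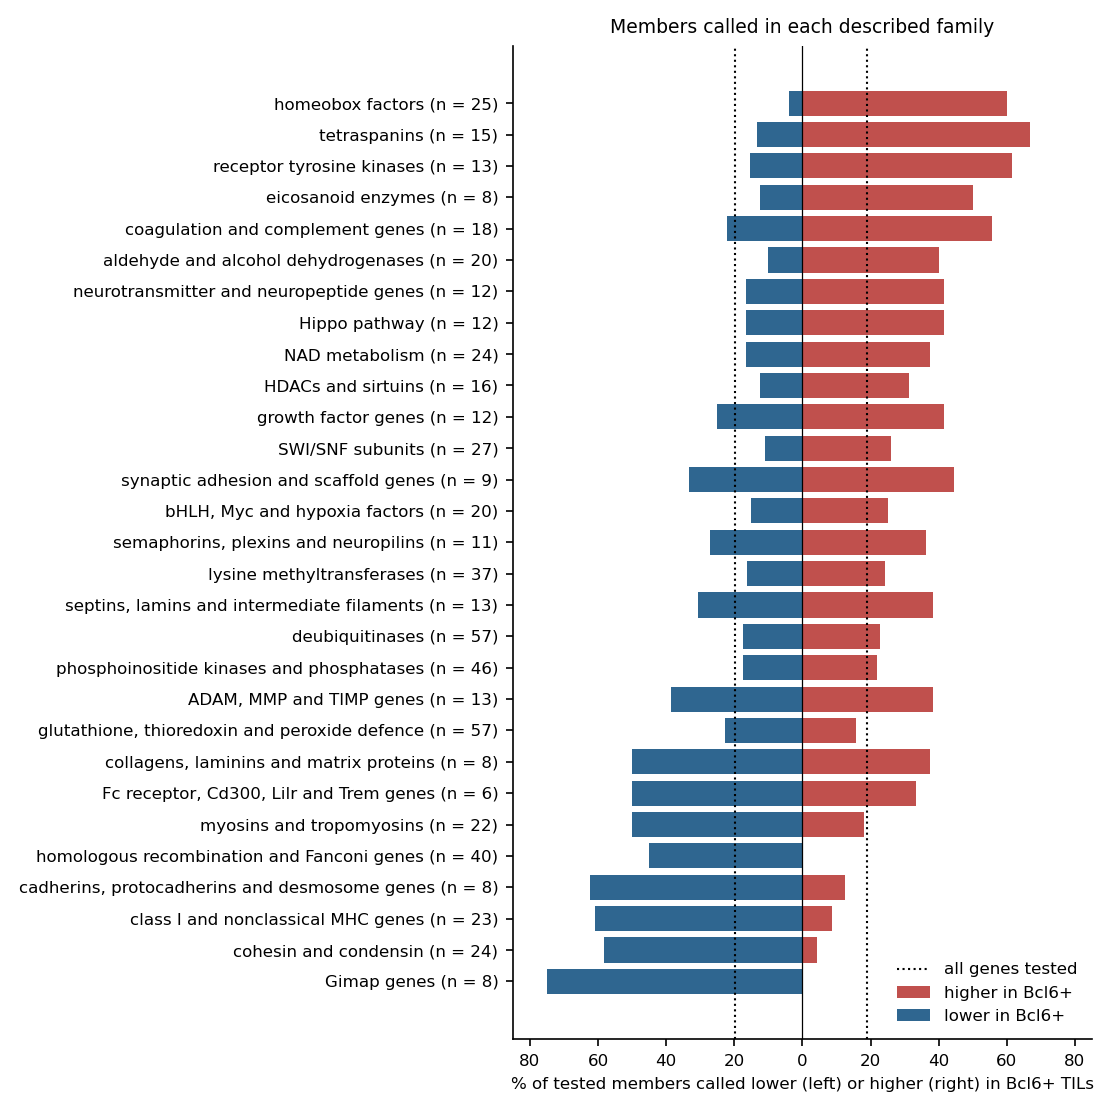
Share of tested members of each described family called higher (right, red) or lower (left, blue) in Bcl6+ than in TIM-3+ TILs, in %, with the number tested. Dotted lines mark all genes tested, 19.0% higher and 19.7% lower. Tetraspanins and receptor tyrosine kinases lie farthest to the right, and Gimap and cadherin genes farthest to the left.

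Tetraspanins, membrane proteins that organise receptors and integrins into microdomains, were mostly higher in Bcl6+ TILs. Of 20 listed, 15 were tested, 10 were higher and 2 lower, and the median log2 fold change was 1.07; of the 14 at 1 FPKM or more in both groups, 10 were higher and 2 lower. Without Bcl6+ replicate 2 the median was 0.70. Cd81, which partners the B cell co-receptor and is also found on T cells, was at 76.6 and 73.0 FPKM in Bcl6+, 25.4 and 27.9 in DN and 5.20 and 6.59 in TIM-3+ TILs (log2 fold change 3.73, SE 0.14, adjusted p = 1.17e-10). The groups did not overlap. Tspan13 was at 147 and 149 against 65.5 and 66.6 FPKM, and Tspan32 at 36.5 and 35.0 against 15.9 and 13.8 FPKM. Cd9, a close relative of Cd81, was at 74.1 and 83.6 against 36.5 and 41.7 FPKM. Tspan2 went the other way, at 1.09 and 1.96 against 4.77 and 5.04 FPKM, and Cd37 was lower by 0.29 on the log2 scale, a call lost under both other scalings and without Bcl6+ replicate 1 or TIM-3+ replicate 2. The most abundant member that was not called was Tspan31, at 77.6 and 68.1 against 77.4 and 71.6 FPKM, where the groups overlapped.

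Receptor tyrosine kinases, which bind growth factors outside the cell and signal through phosphotyrosine inside, were higher more often than lower: of 13 tested among 38 listed, 8 were higher and 2 lower (median log2 fold change 1.42). Of the 7 at 1 FPKM or more in both groups, 2 were higher and 2 lower, so most of the increases were in genes below that level in TIM-3+ TILs. Without Bcl6+ replicate 1, 5 of 10 tested were higher and the median was 0.70. Kit, the receptor of stem cell factor, was at 30.03 and 28.98 FPKM in Bcl6+ and 4.91 and 5.57 FPKM in TIM-3+ TILs (log2 fold change 2.56, SE 0.10, adjusted p = 3e-10). Axl, a receptor of Gas6, was at 34.2 and 39.5 against 7.77 and 5.62 FPKM (log2 fold change 2.52, SE 0.15, adjusted p = 1.38e-08). These were the most abundant members of the family. Ntrk3, the neurotrophin-3 receptor, was at 4.15 and 3.26 against 0.108 and 0.0729 FPKM. Insrr (1.35 and 1.12 against 4.82 and 7.28 FPKM) and Styk1 (1.02 and 2.98 against 5.36 and 5.42 FPKM) were lower, and Lmtk2 was not called. Csf1r, the macrophage colony-stimulating factor receptor, was at 3.32 and 2.45 against 0.157 and 0.127 FPKM, and it belongs to the macrophage markers that rose in the same libraries, whose part in the result was not tested.

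**Figure D4:**
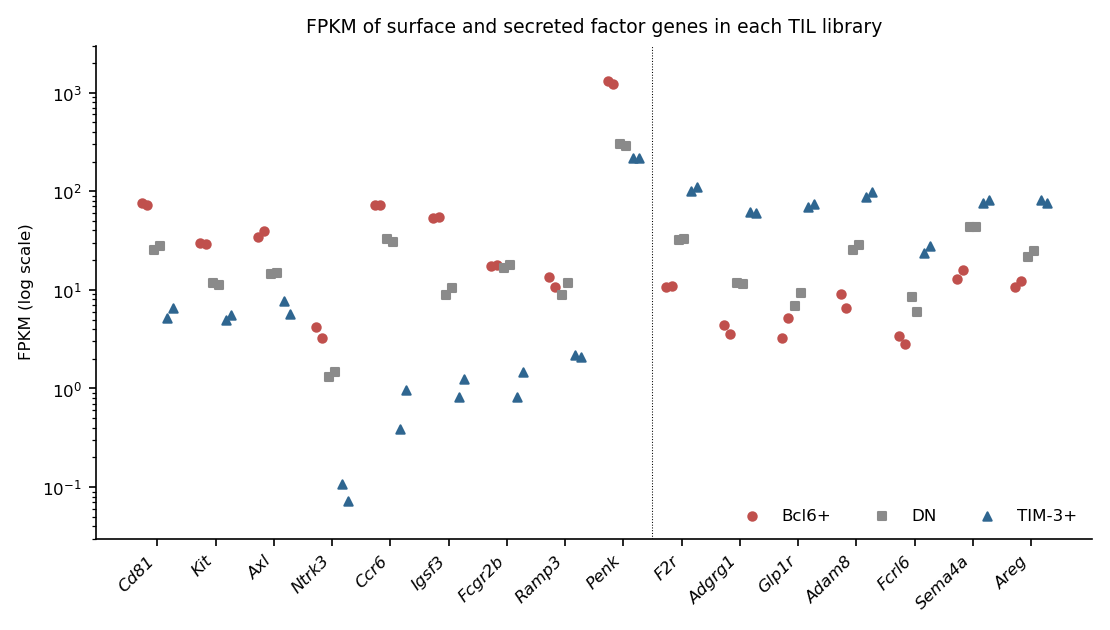
FPKM on a log scale of 16 surface and secreted factor genes in each library of Bcl6+ (red circles), DN (grey squares) and TIM-3+ TILs (blue triangles). For the 9 genes left of the dotted line the Bcl6+ libraries lie above the TIM-3+ libraries, and for the 7 right of it below, with no overlap.

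Growth factor genes split by ligand. Of 12 tested among 39 listed, 5 were higher and 3 lower (median log2 fold change 0.57). Of the 9 at 1 FPKM or more in both groups, 2 were higher and 3 lower. The median was 0.27 without Bcl6+ replicate 2, and 3 were higher without Bcl6+ replicate 1. Bmp7, a bone morphogenetic protein, was at 11.1 and 10.4 FPKM in Bcl6+ against 1.01 and 1.37 FPKM in TIM-3+ TILs (log2 fold change 3.23, SE 0.22, adjusted p = 5.61e-08). Areg, which encodes the EGF receptor ligand amphiregulin, was at 10.6 and 12.2 against 81.7 and 76.5 FPKM (log2 fold change -2.73, SE 0.17, adjusted p = 1.73e-08), and Csf1, the macrophage growth factor, at 9.94 and 12.5 against 34.2 and 33.4 FPKM. So the ligand Csf1 was higher in TIM-3+ libraries, and its receptor gene Csf1r, one of the macrophage markers given above, in Bcl6+ libraries. Which cells the Csf1r reads came from was not tested. Igf1 (3.13 and 2.87 against 0.247 and 0.203 FPKM) and Hgf (3.56 and 3.83 against 0.841 and 1.08 FPKM) were higher in Bcl6+ TILs. Fgf21 was at 1.92 and 1.97 against 0 and 0.201 FPKM, and Csf2 was called higher, a call lost with the 4 compared libraries alone and without Bcl6+ replicate 1 or TIM-3+ replicate 2.

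Neuropeptide and neurotransmitter genes had 12 tested of 72 listed, 5 higher and 2 lower (median log2 fold change 0.40). Of the 8 at 1 FPKM or more in both groups, 4 were higher and none lower, and the median was 0.23 without TIM-3+ replicate 1 and 0.86 without TIM-3+ replicate 2. Penk, the precursor of enkephalins (chromosome 4, 4133531 to 4138819, minus strand), was the most abundant, at 1311 and 1228 FPKM in Bcl6+, 299.6 and 288 in DN and 218 and 217 in TIM-3+ TILs (log2 fold change 2.61, SE 0.06, adjusted p = 6.5e-13). Pcsk1, a convertase that cleaves peptide precursors, was at 10.3 and 6.01 against 0.197 and 0.0341 FPKM. Both rose in the same libraries. Colq, the collagen tail that anchors acetylcholinesterase, was at 23.9 and 22.5 FPKM in Bcl6+ TILs and had 2 counts in all in TIM-3+ TILs, a ratio of 1920 (95% counting interval 532 to 15900). The 2 genes of calcitonin gene-related peptide moved apart: Calcb was at 18.9 and 20.6 against 4.44 and 3.90 FPKM, and Calca at 0.898 and 0.336 against 4.64 and 4.40 FPKM. Ramp3, a receptor activity-modifying protein of the calcitonin receptor family, was at 13.4 and 10.7 against 2.19 and 2.08 FPKM. Vipr2, a receptor of vasoactive intestinal peptide, was at 0.309 and 0.400 against 2.86 and 4.04 FPKM.

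Guidance and adhesion genes changed in both directions. Of 11 semaphorins, plexins and neuropilins tested among 27 listed, 4 were higher and 3 lower (median log2 fold change -0.47), and of the 8 at 1 FPKM or more in both groups 3 were higher and 3 lower. The median became 0.22 without TIM-3+ replicate 1, 0.35 without TIM-3+ replicate 2 and -0.22 without Bcl6+ replicate 2. Sema4a, a semaphorin ligand of activated T cells, was at 12.9 and 15.8 FPKM in Bcl6+ against 76.4 and 82.2 FPKM in TIM-3+ TILs (log2 fold change -2.40, SE 0.10, adjusted p = 3e-10), and Sema4d at 38.8 and 36.4 against 75.2 and 82.4 FPKM. Plxnc1, a plexin receptor, was at 7.87 and 7.19 against 3.43 and 2.71 FPKM. Cadherin, protocadherin and desmosome genes had 8 tested of 83 listed, 1 higher and 5 lower (median log2 fold change -0.96). Of the 5 at 1 FPKM or more in both groups, 1 was higher and 2 lower. Without Bcl6+ replicate 2 the median was -0.40, with 2 higher and 4 lower, and without TIM-3+ replicate 2 there were 3 lower. Dsc2, a desmosomal cadherin, was at 0.135 and 0.330 against 12.8 and 14.2 FPKM, and Ctnna1, alpha-catenin, at 6.86 and 10.9 against 26.4 and 19.9 FPKM. Pkp4, a plakophilin, was the member called higher, at 53.3 and 52.3 against 22.6 and 21.2 FPKM. In neither family did all members move together.

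Among 13 ADAM, MMP and TIMP genes tested of 62 listed, 5 were higher and 5 lower, but of the 9 at 1 FPKM or more in both groups 1 was higher and 5 lower. The sheddases Adam8 (9.17 and 6.52 FPKM in Bcl6+ against 88.3 and 97.3 FPKM in TIM-3+ TILs), Adam19 (6.61 and 3.88 against 28.2 and 23.5) and Adam10 (30.6 and 37.3 against 56.4 and 60.1) were lower, as was Adamts14 (3.85 and 1.83 against 27.6 and 25.5). Mmp9, a gelatinase, was at 3.49 and 4.37 against 0.515 and 0.0540 FPKM. Adam18 and Adam3, ADAM genes known from testis, were also higher, Adam18 at 3.69 and 4.84 against 0.142 and 0.324 FPKM. Of the 4 tested thymocyte and lymphoma markers, 1 was higher and 1 lower, and the part of tumor cells was not tested. Of 8 matrix genes tested among 66 listed, 3 were higher and 4 lower, and of the 4 at 1 FPKM or more in both groups none was higher and 3 were lower. The abundant Spp1, which encodes osteopontin, was at 358 and 334 against 881 and 885 FPKM (log2 fold change -1.29, SE 0.05, adjusted p = 3.72e-10). Laminin subunits divided: Lamc1 fell by 1.49 on the log2 scale, and Lamb2 rose by 2.45.

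Fc receptor, Cd300, Lilr and Trem genes, which pair activating with inhibitory signals, had 6 tested of 29 listed, 2 higher and 3 lower; of the 5 at 1 FPKM or more in both groups, 1 was higher and 3 lower. Fcgr2b, the inhibitory Fc receptor for IgG, was at 17.4 and 17.8 FPKM in Bcl6+ and 0.811 and 1.46 FPKM in TIM-3+ TILs (log2 fold change 4.01, SE 0.21, adjusted p = 4e-09), and DN TILs were like Bcl6+ TILs at 16.6 and 17.7 FPKM. Fcrl6, an Fc receptor-like gene, was at 3.41 and 2.85 against 23.8 and 27.8 FPKM. Lilr4b and Lilrb4a, near-identical inhibitory receptors between which reads may have been split, were at 7.19 and 8.91 against 32.2 and 25.9 FPKM and at 5.67 and 4.94 against 12.6 and 13.8 FPKM. Fcer1g, the shared signalling chain, was not called (18.99 and 18.3 against 18.1 and 16.03 FPKM). Fcgr3 was called higher and lost the call without Bcl6+ replicate 1 or TIM-3+ replicate 2.

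Clotting and complement genes had the largest median of the described families (log2 fold change 1.71), with 10 of 18 tested members higher and 4 lower among 49 listed; of the 9 at 1 FPKM or more in both groups, 3 were higher and 3 lower. Without Bcl6+ replicate 1 the median was 0.04, with 6 higher and 4 lower, and without Bcl6+ replicate 2 it was 0.89. Of the thrombin receptors, F2r and F2rl2 were lower in Bcl6+ TILs, F2r at 10.8 and 10.9 against 101 and 111 FPKM (log2 fold change -3.23, SE 0.10, adjusted p = 1.37e-11) and F2rl2 at 0.587 and 0.105 against 5.75 and 9.69 FPKM. The related receptor F2rl3 was not called (log2 fold change -1.18, adjusted p = 0.0984). Cd55 and Cr1l, which protect the cell surface from complement, were lower (Cd55 at 10.3 and 9.25 against 22.998 and 20.1 FPKM), and Cd59a, another such protector, was not called (log2 fold change -1.41, adjusted p = 0.0696). Proc, the anticoagulant protein C, was at 6.82 and 5.62 FPKM in Bcl6+ TILs and had no count in TIM-3+ TILs, at least 141-fold higher against the floor of 3 counts. Plaur, the urokinase receptor, was at 4.17 and 4.46 against 0 and 0.511 FPKM, a call that DESeq2 did not make. Serpinc1, antithrombin, was at 2.03 and 1.65 against 0.140 and 0.252 FPKM. The complement chains C1qa (9.16 and 9.35 against 3.04 and 2.80 FPKM) and C1qb (9.86 and 8.33 against 3.04 and 2.81 FPKM), with C1qc and C5ar1, rose beside the macrophage markers given above, and the part of such cells was not tested. Serpine2, the most abundant member, was not called (147 and 144 against 146 and 149 FPKM).

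Homeobox factors, DNA-binding proteins best known from body patterning, were the transcription factor family with the largest median (log2 fold change 0.73). Of 25 tested among 66 listed, 15 were higher and 1 lower, and of the 17 at 1 FPKM or more in both groups, 8 were higher and none lower. Zhx2, a zinc finger and homeodomain repressor, was at 14.98 and 17.97 FPKM in Bcl6+, 7.68 and 7.84 in DN and 1.67 and 1.95 in TIM-3+ TILs (log2 fold change 3.25, SE 0.19, adjusted p = 1.01e-08). Pou2f2, the lymphoid octamer factor Oct-2, was at 9.25 and 11.99 against 5.17 and 3.90 FPKM, and Cux1 at 5.19 and 4.32 against 2.07 and 2.35 FPKM. Dlx4, known from embryonic patterning, was low but apart, at 4.23 and 4.71 against 0.249 and 0.146 FPKM. The DN libraries were near the Bcl6+ libraries, at 5.42 and 4.08 FPKM. Hopx was the member called lower (0.763 and 0.374 against 1.74 and 1.67 FPKM). Of the 15 alternative analyses, 4 made that call, 8 did not, and the rest did not test Hopx. Zhx1 was not called and its groups overlapped.

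**Figure D5:**
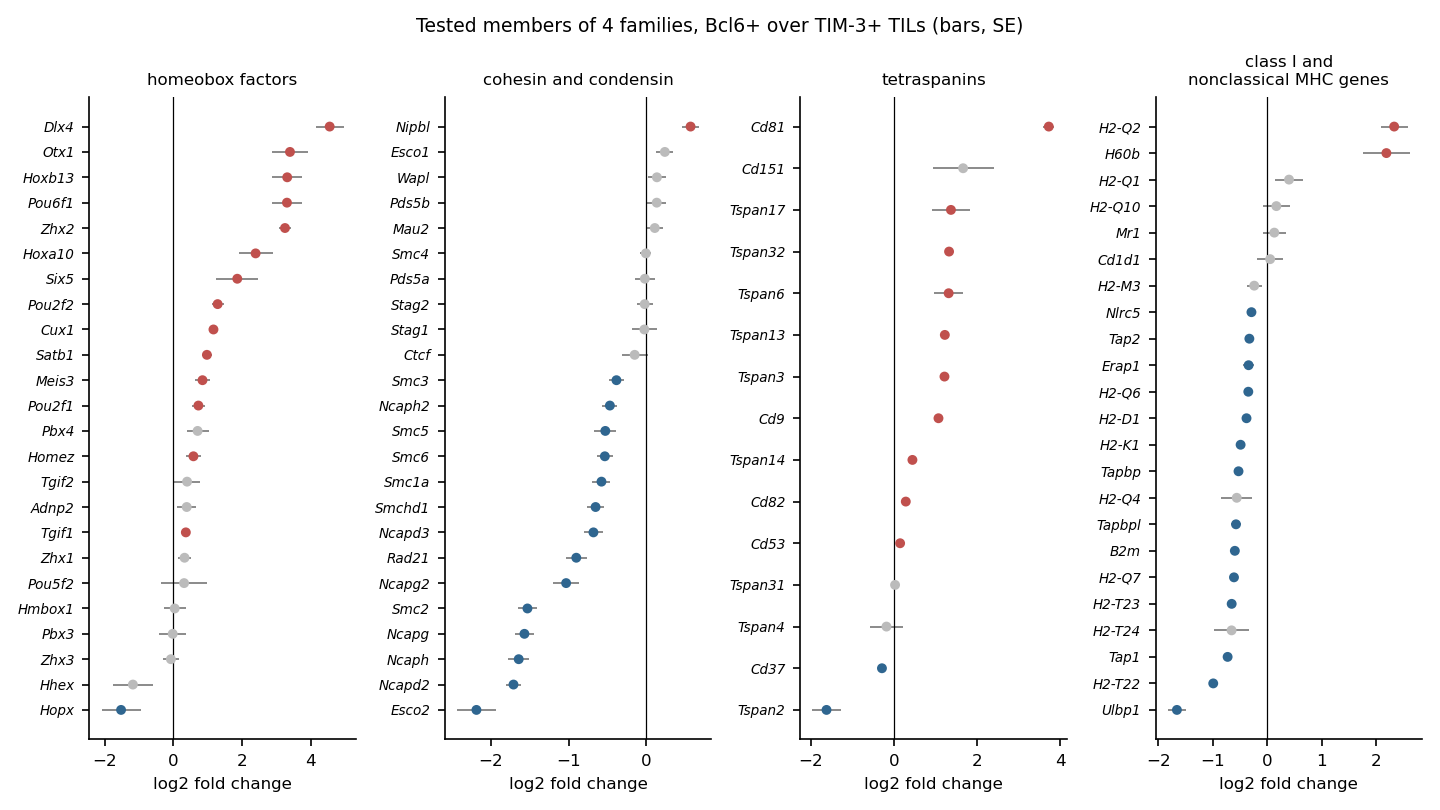
Log2 fold change of Bcl6+ over TIM-3+ TILs, with SE, for tested members of 4 families (24 homeobox factors are drawn). Red and blue points were called higher or lower and grey points were not called: 15 of 25 homeobox factors and 10 of 15 tetraspanins were higher, and 14 of 24 cohesin and condensin and 14 of 23 class I genes were lower.

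Histone deacetylases and sirtuins, which remove acetyl groups from histones and other proteins, had 5 of 16 tested members higher and 2 lower, and 4 and 2 of the 15 at 1 FPKM or more in both groups. Sirt2 was at 25.7 and 23.8 FPKM in Bcl6+ against 42.8 and 38.3 FPKM in TIM-3+ TILs, and Sirt5, a mitochondrial desuccinylase, at 2.24 and 3.02 against 0.952 and 0.612 FPKM. Hdac10 (8.51 and 9.49 against 4.44 and 5.56 FPKM) and Hdac8 (5.67 and 5.77 against 3.52 and 3.01 FPKM) were higher. Hdac1 was lower by 0.28 on the log2 scale, a call lost under both scalings named above.

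Among genes that shape and repair chromosomes, more were lower than higher in Bcl6+ TILs. Cohesin holds sister chromatids together and condensin compacts them for division. Of 24 tested members of 26 listed, 14 were lower and 1 higher (median log2 fold change -0.50), and all 24 were at 1 FPKM or more in both groups. The condensin I subunits Ncapd2 (10.5 and 11.3 against 35.7 and 38.5 FPKM, log2 fold change -1.71, SE 0.10, adjusted p = 1.41e-08), Ncaph (12.2 and 11.8 against 43.8 and 34.2 FPKM) and Ncapg (6.55 and 6.46 against 19.7 and 20.6 FPKM) fell. Smc2, the shared core ATPase, was at 11.5 and 11.8 against 35.7 and 34.3 FPKM. Its partner Smc4 was not called, at 56.4 and 57.7 against 59.96 and 59.4 FPKM. The cohesin loader Nipbl was the member called higher (23.3 and 29.3 against 19.99 and 17.0 FPKM). Homologous recombination and Fanconi genes repair broken and crosslinked DNA, and of 40 tested among 42 listed, 18 were lower and none higher (median log2 fold change -0.61). Of the 36 at 1 FPKM or more in both groups, 14 were lower. The helicase genes Brip1 and Rad54l were lower by 1.57 and 1.43 on the log2 scale. Rad50, a sensor of breaks, was not called (12.8 and 12.6 against 14.7 and 11.8 FPKM). Under length-corrected scaling 2 recombination genes were called higher and 14 lower. Cohesin and condensin genes then had 6 higher and 11 lower (median log2 fold change -0.235), and under total counts 4 higher and 12 lower (-0.316).

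Promoters of these genes were read from RefSeq (build GRCm38.p6), which gave 300 bases, 250 before and 50 after the start, for 7898 of the 9717 tested genes. The cell cycle homology region (CHR), known from promoters of late cell cycle genes, was searched as TTTGAA on both strands; it shares bases with the TCF/LEF letters CTTTGA. It was present in 12.2% of all promoters, in 22.3% of the 515 of genes at least 2-fold lower and in 10.8% of the 666 of genes at least 2-fold higher in Bcl6+ TILs. The CCAAT box (CCAAT) stood in 40.0%, 46.0% and 34.1%, E2F letters (TTTGGCG or TTTCCCG) in 9.10%, 12% and 5.11%, and Ets letters (CCGGAAG) in 21.1%, 12.6% and 10.1%. TCF/LEF letters were near even, in 12.1%, 13.2% and 12.8%. CHR letters were in the promoters of 6 of 12 cohesin and condensin genes called lower, near the share of 8 of 18 over tested members. They were in 2 of 13 recombination genes called lower and 2 of 31 tested. In kinesin and dynein genes they were in 11 of 15 called lower and 11 of 35 tested. A match describes letters in a window and is not a binding site. The called-lower gene with the largest change and CHR letters in each of these 3 families is shown, with the letters in capitals on either strand. They start 123 bases before the start in Ncapd2, 21 bases after it in Eme1, an endonuclease subunit (log2 fold change -2.04), and 215 and 17 bases before it in Kif22, a chromosome-bound kinesin (3.34 and 3.77 FPKM in Bcl6+ against 22.2 and 24.0 FPKM in TIM-3+ TILs).
Ncapd2, chr6:125191537-125191836, minus strand: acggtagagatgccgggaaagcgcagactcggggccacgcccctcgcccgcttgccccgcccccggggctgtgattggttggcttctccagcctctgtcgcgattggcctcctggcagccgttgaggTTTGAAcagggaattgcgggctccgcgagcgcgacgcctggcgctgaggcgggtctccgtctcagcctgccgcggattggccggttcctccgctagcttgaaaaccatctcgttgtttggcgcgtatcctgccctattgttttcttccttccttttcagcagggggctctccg
Eme1, chr11:94653694-94653993, minus strand: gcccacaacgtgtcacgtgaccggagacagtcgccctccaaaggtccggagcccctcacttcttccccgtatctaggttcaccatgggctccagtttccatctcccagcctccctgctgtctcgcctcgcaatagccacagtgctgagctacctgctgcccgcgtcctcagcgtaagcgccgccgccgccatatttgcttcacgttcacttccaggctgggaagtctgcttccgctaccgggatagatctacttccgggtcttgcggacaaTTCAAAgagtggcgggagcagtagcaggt
Kif22, chr7:127042371-127042670, minus strand: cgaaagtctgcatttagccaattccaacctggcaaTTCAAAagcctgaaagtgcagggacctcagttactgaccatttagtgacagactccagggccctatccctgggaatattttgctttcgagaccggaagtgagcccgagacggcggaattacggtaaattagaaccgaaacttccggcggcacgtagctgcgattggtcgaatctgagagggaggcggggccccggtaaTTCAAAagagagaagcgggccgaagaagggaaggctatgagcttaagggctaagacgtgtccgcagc

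Promoters of the genes higher in Bcl6+ TILs held fewer CpG dinucleotides, with a median of 16 in 300 bases against 19 for lower genes and 21 over all. The 2 most abundant of the 15 largest increases by the naming rule show the spread, with each CG in capitals: Ccr6 has 2 and Igsf3 has 35.
Ccr6, chr17:8235793-8236092, plus strand: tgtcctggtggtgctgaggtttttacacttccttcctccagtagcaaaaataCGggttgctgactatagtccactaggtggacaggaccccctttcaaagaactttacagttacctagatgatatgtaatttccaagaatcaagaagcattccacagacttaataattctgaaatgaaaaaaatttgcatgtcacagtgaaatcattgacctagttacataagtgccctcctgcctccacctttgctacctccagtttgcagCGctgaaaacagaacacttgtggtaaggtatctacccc
Igsf3, chr3:101376875-101377174, plus strand: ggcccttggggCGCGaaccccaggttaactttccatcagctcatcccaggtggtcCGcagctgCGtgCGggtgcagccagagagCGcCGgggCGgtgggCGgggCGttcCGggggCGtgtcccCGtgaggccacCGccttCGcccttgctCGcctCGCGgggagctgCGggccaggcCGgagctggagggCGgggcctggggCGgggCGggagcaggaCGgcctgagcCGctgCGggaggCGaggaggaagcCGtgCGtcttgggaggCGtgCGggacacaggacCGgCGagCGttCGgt

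Among immune GTPases and antigen presentation genes, more were lower than higher in Bcl6+ TILs. Gimap genes encode GTPases of lymphocyte survival and lie side by side on chromosome 6. All 8 listed were tested, 6 were lower and none higher, with Gimap7 at 33.0 and 25.4 against 107 and 112 FPKM (log2 fold change -1.84, SE 0.11, adjusted p = 2.17e-08) and Gimap4 at 151 and 141 against 405 and 447 FPKM. DN TILs lay between, Gimap4 at 311 and 346 FPKM. Gimap9 was not called (38.4 and 42.5 against 45.8 and 56.4 FPKM). Class I and nonclassical MHC genes, with their peptide loading partners, had 14 of 23 tested members lower and 2 higher, all of them at 1 FPKM or more in both groups. Under length-corrected scaling 10 class I and 4 Gimap genes were lower. B2m, the light chain, was at 5180 and 5147 against 8292 and 7998 FPKM (log2 fold change -0.60, SE 0.03, adjusted p = 3.84e-09), and the heavy chain H2-K1 at 1436 and 1506 against 2145 and 2167 FPKM. H2-T22 was at 38.8 and 39.1 against 84.0 and 77.8 FPKM. H2-Q2 went the other way, at 16.7 and 15.97 against 2.81 and 3.99 FPKM, and H60b, a stress ligand of NKG2D, was at 4.77 and 5.57 against 1.38 and 0.985 FPKM. Reads of the near-identical H2 genes may have been split between them. The class I median of -0.38 became -0.20 and -0.12 under the other scalings, where the median of all genes moved up by as much.

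Myosin, tropomyosin and calponin genes had 11 of 22 tested members lower and 4 higher (median log2 fold change -0.32), and 11 and 4 of the 21 at 1 FPKM or more in both groups. Myo1f, an unconventional myosin of immune cells, was at 37.6 and 30.4 FPKM in Bcl6+ against 107 and 109 FPKM in TIM-3+ TILs (log2 fold change -1.61, SE 0.09, adjusted p = 1.01e-08), and Cnn2, calponin 2, at 159 and 176 against 354 and 365 FPKM. Tpm4 was at 156 and 146 against 271 and 281 FPKM. Close relatives moved the other way: Myo1e was at 44.2 and 39.7 against 18.4 and 21.6 FPKM, and Cnn3 at 15.3 and 16.6 against 2.29 and 1.78 FPKM. Myl12a (68.2 and 70.6 against 134.3 and 126 FPKM) overlaps the end of Myom1, which rose, and the use of strand in the counts is not given. Septins, lamins and intermediate filaments had 5 of 13 tested members higher and 4 lower, and 2 and 4 of the 10 at 1 FPKM or more in both groups. Vim, vimentin, was at 20.1 and 19.8 against 75.6 and 68.4 FPKM and Lmnb1, lamin B1, at 40.6 and 44.8 against 72.9 and 84.5 FPKM. The epithelial keratin gene Krt17 had no count in TIM-3+ TILs and 3.79 and 3.74 FPKM in Bcl6+ TILs, at least 84.8-fold higher against the floor of 3 counts. Synaptic scaffold genes split as well, 4 of 9 higher and 3 lower (3 and 2 of the 7 at 1 FPKM or more in both groups), with Sv2c at 0.638 and 0.422 against 6.21 and 6.70 FPKM and Dlgap3 at 1.70 and 2.48 against 0.0848 and 0.116 FPKM.

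Enzymes of NAD metabolism had 9 of 24 tested members higher and 4 lower among 35 listed (median log2 fold change 0.47), and 7 and 4 of the 21 at 1 FPKM or more in both groups. The lower calls were 2 without Bcl6+ replicate 1 or TIM-3+ replicate 1. Cd38, the surface enzyme that consumes NAD, was at 19.98 and 19.2 FPKM in Bcl6+ against 51.0 and 50.2 FPKM in TIM-3+ TILs (log2 fold change -1.31, SE 0.10, adjusted p = 1.29e-07). Art3, of the ADP-ribosyltransferase family, was at 14.2 and 10.7 against 0.195 and 0.0486 FPKM. Among genes that build NAD, Nmrk1, nicotinamide riboside kinase, was at 48.7 and 43.1 against 25.01 and 23.8 FPKM, and Nmnat3 at 4.75 and 5.77 against 1.62 and 1.9965 FPKM. Nadk, which phosphorylates NAD, was not called. Parp14 was lower by 0.49 on the log2 scale, a call lost under both other scalings and without TIM-3+ replicate 1. Of 8 eicosanoid genes tested, 4 were higher and 1 lower, led by Pla2g4f, a cytosolic phospholipase A2 (11.6 and 13.5 against 0.314 and 0.119 FPKM, log2 fold change 5.90, SE 0.37, adjusted p = 2.31e-08). Of the 6 eicosanoid genes at 1 FPKM or more in both groups, 2 were higher and 1 lower. The higher calls fell to 1 without TIM-3+ replicate 1 and to 2 without Bcl6+ replicate 1 or 2, since Cbr4, Cbr1 and Alox5ap each lost the call in some of these, and Pla2g4f kept it in all. Aldehyde and alcohol dehydrogenases had 8 of 20 higher and 2 lower (5 and 2 of the 17 at 1 FPKM or more in both groups, and 5 higher without Bcl6+ replicate 1), with Aldh2 at 4.52 and 3.39 against 0.458 and 1.17 FPKM. Akr1c12 was at 10.7 and 12.1 against 3.73 and 3.22 FPKM, and reads may be shared with its close relative Akr1c13. Hippo pathway genes, which restrain growth through Yap, had 5 of 12 higher and 2 lower (4 and 2 of the 11 at 1 FPKM or more in both groups, and 3 higher without TIM-3+ replicate 1 or 2): the angiomotin-like gene Amotl2 was at 3.23 and 3.01 against 0.419 and 0.114 FPKM, and Mob1a at 46.4 and 58.8 against 89.8 and 88.4 FPKM.

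Other families were near the background of 38.7% called. Glutathione, thioredoxin and peroxide genes had 9 higher and 13 lower of 57 tested, phosphoinositide kinases and phosphatases 10 and 8 of 46, and deubiquitinases 13 and 10 of 57. Lysine methyltransferases had 9 higher and 6 lower of 37, SWI/SNF subunits 7 and 3 of 27, and bHLH, Myc and hypoxia factors 5 and 3 of 20. Single libraries moved several of these counts. The SWI/SNF subunits called higher were 2 without Bcl6+ replicate 1, 4 without Bcl6+ replicate 2, 3 without TIM-3+ replicate 1 and 5 without TIM-3+ replicate 2, and the bHLH factors called higher were 2 without Bcl6+ replicate 1. Methyltransferases called lower were 3 without Bcl6+ replicate 2 and 2 without TIM-3+ replicate 2. Deubiquitinases called lower were 6 without Bcl6+ replicate 1, Bcl6+ replicate 2 or TIM-3+ replicate 2, and glutathione genes called lower were 8 without TIM-3+ replicate 1. In the bHLH family Bhlhe40, its most abundant member, was lower by 0.17 on the log2 scale and changed sign under both other scalings.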

How the data were processed

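RNA of sorted TILs was sequenced in 6 libraries. The authors deposited, a count and an FPKM value per gene and library, per the file headers. Per the submitters' processing notes, Bowtie2, Subread, featureCounts, edgeR and DESeq2 were used with the build mm10; their versions, roles and use of strand were not given in the sources used here. Counts summed to 20185577 and 20644840 in Bcl6+, 20529410 and 20871012 in DN and 22097550 and 22304113 in TIM-3+ libraries, and genes with a summed count under 20 are not in the table.

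Deposited counts were tested with the edgeR 4.0.16 quasi-likelihood test in R 4.3.3 with TMM scaling, 6 libraries in 1 fit, two-sided, adjusted by Benjamini-Hochberg over the 9717 genes averaging 1 FPKM or more in the compared libraries. CPM was scaled by TMM. SE was taken as the absolute log2 fold change divided by the root of F. limma 3.58.1, DESeq2 1.42.0 and other scalings, filters and samples were alternatives. The fit was tested on simulated data.

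A few genes are counted in their families but not reported here. The members and lists were chosen with earlier results of these data known. Families came from symbol patterns, and 18 symbols that belong elsewhere were taken out after values were seen. Named genes were the 15 largest changes and 10 largest FPKM differences in each direction, and up to 4 called members per direction of a family, with its most abundant uncalled member. The largest changes and differences were ranked outside predicted models, receptor segments and lists of genes left out, which held exhaustion genes and others. The genes of the closing observations and several family members (such as Cd9, Styk1, Pou2f2, Sirt5, Hdac8, Aldh2, Akr1c12, Csf2 and Eme1) were added after their values were seen. Positions are from GENCODE M21, where 9703 tested genes matched.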

Additional observations from a re-analysis of the deposited data

How the results depend on the processing

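Of 298 named genes that were called, 250 kept direction and call under every one of the 15 alternatives that tested them. Some low genes failed the level filter in part of the alternatives, which are not counted for them. The call was lost under at least 1 alternative by 47, and 2, of which 1 is also among the 47, changed sign: Bhlhe40, with a log2 fold change of 0.00557 under total counts and 0.0863 under length-corrected (TPM-based) scaling, and Cd3d, 0.0316 under TPM-based scaling, both uncalled there. Total counts gave 2886 genes higher and TPM-based scaling 3511 higher and 1120 lower, since these scalings move the median of all genes. With an average of 5 FPKM required, fewer genes were tested, and 785 changed at least 2-fold, 393 higher and 392 lower. Without each replicate in turn the fit called 3151 to 3308 genes, 1549 to 1605 higher and 1602 to 1724 lower, and 1422 to 1535 at least 2-fold, 764 to 900 higher and 630 to 673 lower. Replicate numbers in the labels are not said to mark shared animals, and deviations of same-numbered libraries correlated at 0.029, -0.002 and 0.026, so the fit was unpaired; with a replicate block it called 3720 genes and 1503 at least 2-fold. Medians of small families depend on the level filter: without it 5 of the 29 medians changed sign, semaphorins from -0.47 to 1.44, cadherins from -0.96 to 0.29, matrix genes from -0.61 to 1.12, Fc receptors from -0.53 to 1.88 and myosins from -0.32 to 0.58. Without TIM-3+ replicate 1 the matrix gene median was 0.42 and the Fc receptor median 0.44. Above 5 FPKM the growth factor median was -0.63 and the clotting and complement median -0.18. At 2 libraries a group, low genes such as Hopx, Fcgr3 and Plaur limit what can be said.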

Other observations

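Families outside the rule for description held further values, chosen here after they were seen. Polyamine, arginine and proline genes had 8 of 23 tested members higher in Bcl6+ TILs and 3 lower, against 19.0% and 19.7% of all genes. Odc1, ornithine decarboxylase and the entry to polyamine synthesis, was at 43.0 and 34.1 FPKM in Bcl6+ against 12.2 and 11.8 FPKM in TIM-3+ TILs (log2 fold change 1.75, SE 0.13, adjusted p = 1.67e-07). Amd1, which supplies the aminopropyl donor, was at 33.97 and 41.7 against 20.3 and 19.1 FPKM. The catabolic genes Sat1 (378 and 360 against 188 and 189 FPKM) and Smox (9.70 and 9.41 against 3.79 and 3.94 FPKM) were higher too, so genes of synthesis and breakdown rose in the same libraries. Oaz1, antizyme, which targets ornithine decarboxylase for degradation, was lower (195 and 181 against 265 and 263 FPKM). Arg1, a macrophage enzyme as well, was at 2.84 and 2.09 against 0.366 and 0.493 FPKM beside the higher macrophage markers, whose part was not tested.

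Zinc finger genes of the Zfp, Zkscan and Zscan groups had 50 of 270 tested members higher, a share near the 19.0% of all genes, and 6 lower, against 19.7% of all genes. These shares of all genes are not matched for expression level. Zscan22 was at 11.2 and 13.6 against 4.12 and 4.55 FPKM. Lysine demethylases had 11 of 26 higher and 1 lower, led by Kdm4d (7.32 and 8.82 against 2.33 and 1.5037 FPKM), and Polycomb PRC1 subunits 10 of 23 higher and 1 lower, with Cbx7 at 8.80 and 7.41 against 4.57 and 4.22 FPKM. Kinesins and dyneins had 19 of 48 lower and 7 higher; the mitotic motor Kif11 was at 8.60 and 10.4 against 46.2 and 43.2 FPKM.

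Signalling genes split within families. Jak2 was at 17.0 and 20.4 against 4.85 and 4.05 FPKM (log2 fold change 2.13, SE 0.16, adjusted p = 1.77e-07), and Jak3, which serves common gamma chain cytokine receptors, at 61.0 and 65.3 against 110 and 118 FPKM. Stat5a was higher by 1.04 in log2 fold change. Of the plasma membrane calcium pumps, Atp2b2 was at 11.97 and 10.8 against 4.22 and 3.59 FPKM and Atp2b4 at 1.29 and 1.18 against 5.14 and 5.32 FPKM. Ptprk, a receptor-type phosphatase, was at 20.9 and 23.1 against 2.37 and 2.90 FPKM. Rora, a nuclear receptor, was at 20.9 and 21.0 against 4.58 and 5.81 FPKM. Rhox5, an X-linked homeobox gene known from testis and tumor lines, was at 184 and 193 FPKM in Bcl6+, 228 and 249 in DN and 20.3 and 25.9 in TIM-3+ TILs. Rhox5 was not matched by the homeobox symbol list. Of the thymocyte and lymphoma markers, Dntt was higher and Themis lower in Bcl6+ TILs, and the part of tumor cells was not tested. Lactoferrin, Ltf, a neutrophil marker, was at 0.671 and 1.20 FPKM in Bcl6+ against 35.7 and 31.9 FPKM in TIM-3+ TILs. It made up most of the neutrophil marker sum given above for TIM-3+ TILs, and the part of neutrophils was not tested.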
